A study of Homo sapiens with 9 samples.

Results

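The genes described here encode the machinery that imports proteins into mitochondria and the chaperones and proteases that handle them in the matrix. They were the rows of the deposited expression table named TOMM or TIMM with a number and at most 1 trailing letter, together with HSPD1, HSPE1, HSPA9, GRPEL1, PMPCA, PMPCB, DNAJC19, CLPP, CLPX, LONP1, SAMM50, TRAP1, PHB and PHB2. This gave 39 genes of 27315 in the table. Of these, 38 were high enough to be tested, and TOMM20L, a paralogue of TOMM20, was not, with a recovered count of at most 3.07 in any library.

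The cells were MDA-MB-468, a line from a human breast tumour of the triple-negative kind. The 9 libraries were 3 from cells infected with a scrambled control hairpin, 3 from cells with a hairpin against BBOX1 called sh1 and 3 with a hairpin called sh6, all delivered by lentivirus with drug selection, so the controls carry a hairpin and a selection marker too. BBOX1 encodes gamma-butyrobetaine hydroxylase, which makes carnitine, the carrier of long-chain fatty acids into mitochondria, and the study asks what its depletion does to these cells. The protocol gives target sequences for hairpins named sh1 and sh2, and no label says which sequence sh6 carries.

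Nearly all mitochondrial proteins are made in the cytosol. The TOM complex of the outer membrane takes them in, the small TIM chaperones carry hydrophobic ones across the intermembrane space, and the TIM23 and TIM22 complexes pass them through or into the inner membrane. A motor built on the HSP70 protein HSPA9 pulls matrix proteins in, the processing peptidase removes their targeting signal, HSPD1 and HSPE1 fold them, and the proteases LONP1 and CLPXP degrade damaged ones. Cells with disturbed mitochondria can raise transcripts of these chaperones and proteases, a programme called the mitochondrial unfolded protein response.

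BBOX1 was at a normalised count of 2360 to 2785 in the control libraries, 324 to 346 with sh1 and 581 to 618 with sh6, without overlap between groups. Recovered depth was 15741733 to 19756209 reads per library. All 10 epithelial and basal markers checked were above the level for testing, with summed counts of 141413 to 152069 in the controls, 149161 to 154795 under sh1 and 147120 to 151706 under sh6. Single markers moved both ways within that sum, 4 higher and 1 lower with sh1, and 3 higher and 3 lower with sh6, among them KRT5 (log2 difference 0.82), KRT6A (-0.69) and EGFR (-0.34) with sh6, named after their values were seen. Summed counts of the receptor genes ESR1, PGR and ERBB2 were 1285 to 1369 in the controls, 978 to 1018 under sh1 and 683 to 753 under sh6. PGR was at 0 in every library. ESR1, the oestrogen receptor gene, was at 211 to 253 in the controls, 226 to 255 under sh1 and 96.9 to 116 under sh6. ERBB2 made up the rest, which is most of the sum. Of the 2 receptor genes tested, 1 was lower with sh1 and 2 with sh6. Of 6 fibroblast, 6 leucocyte and 5 endothelial markers, 1, 1 and 2 were above the level for testing. Summed counts of the leucocyte markers were 200 to 230 in the controls, 86.5 to 96.6 under sh1 and 143 to 151 under sh6, those of the endothelial markers 248 to 285, 105 to 153 and 94.9 to 135, and those of the fibroblast markers 324 to 444, 286 to 352 and 313 to 395. The part of other cell types in the results was not tested. No label states that libraries of 1 group were grown as separate cultures. The p-values therefore reflect library-to-library spread, part or all of which could be technical. In bulk RNA, a change per cell and a change in the share of cells that express a gene cannot be told apart.

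The import and chaperone genes did not move as a block. With sh1, TOMM40 (log2 difference 0.97) and TRAP1 (0.58) rose most, followed by LONP1 (0.32), and TIMM22 (-0.36) fell most. With sh6, TOMM40 (0.81), TRAP1 (0.76), PMPCA (0.72) and TIMM50 (0.61) rose most, and TOMM34 (-1.51) fell most. With sh1, 12 of the 38 genes rose and 4 fell at an adjusted p under 0.05, where 58.9% of all 13165 genes tested were called in either direction (29.0% higher, 30.0% lower). With sh6, 17 rose and 7 fell, against 67.8% of all genes called (34.2% higher, 33.6% lower). The share of members called in either direction was 42.1% with sh1 and 63.2% with sh6, no higher than the share of all genes. By direction, 31.6% of members were higher and 10.5% lower with sh1, and 44.7% and 18.4% with sh6. The share higher was thus above that of all genes, more so with sh6, and the share lower was below it with both hairpins. The median log2 difference of the members was 0.01 with sh1 and 0.05 with sh6, beside 0.001 and 0.006 over all genes. Their median absolute log2 difference was 0.12 with sh1 and 0.20 with sh6, where all genes had 0.22 and 0.28. By the fitted log2 difference, changes of at least 1.5-fold that passed the test were found for 1 member with sh1 and 5 with sh6. These were 2.63% and 13.2% of the members, beside 12.5% and 18.4% of all genes. TRAP1 with sh1 was 1.52-fold higher by counts but, at a fitted 0.58, was just under that size. Counts did not overlap between groups for 11 higher and 8 lower members with sh1 (31.7% and 32.4% of all genes) and for 17 and 8 with sh6 (34.6% and 33.9%). With reads scaled to library totals in limma's voom, 16 members were higher with sh1 in place of 12, and 2 lower in place of 4. Of the sh1 calls over all genes, 65.0% were then higher in place of 49.1%. Both hairpin groups are compared with the same 3 control libraries.

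**Figure D1:**
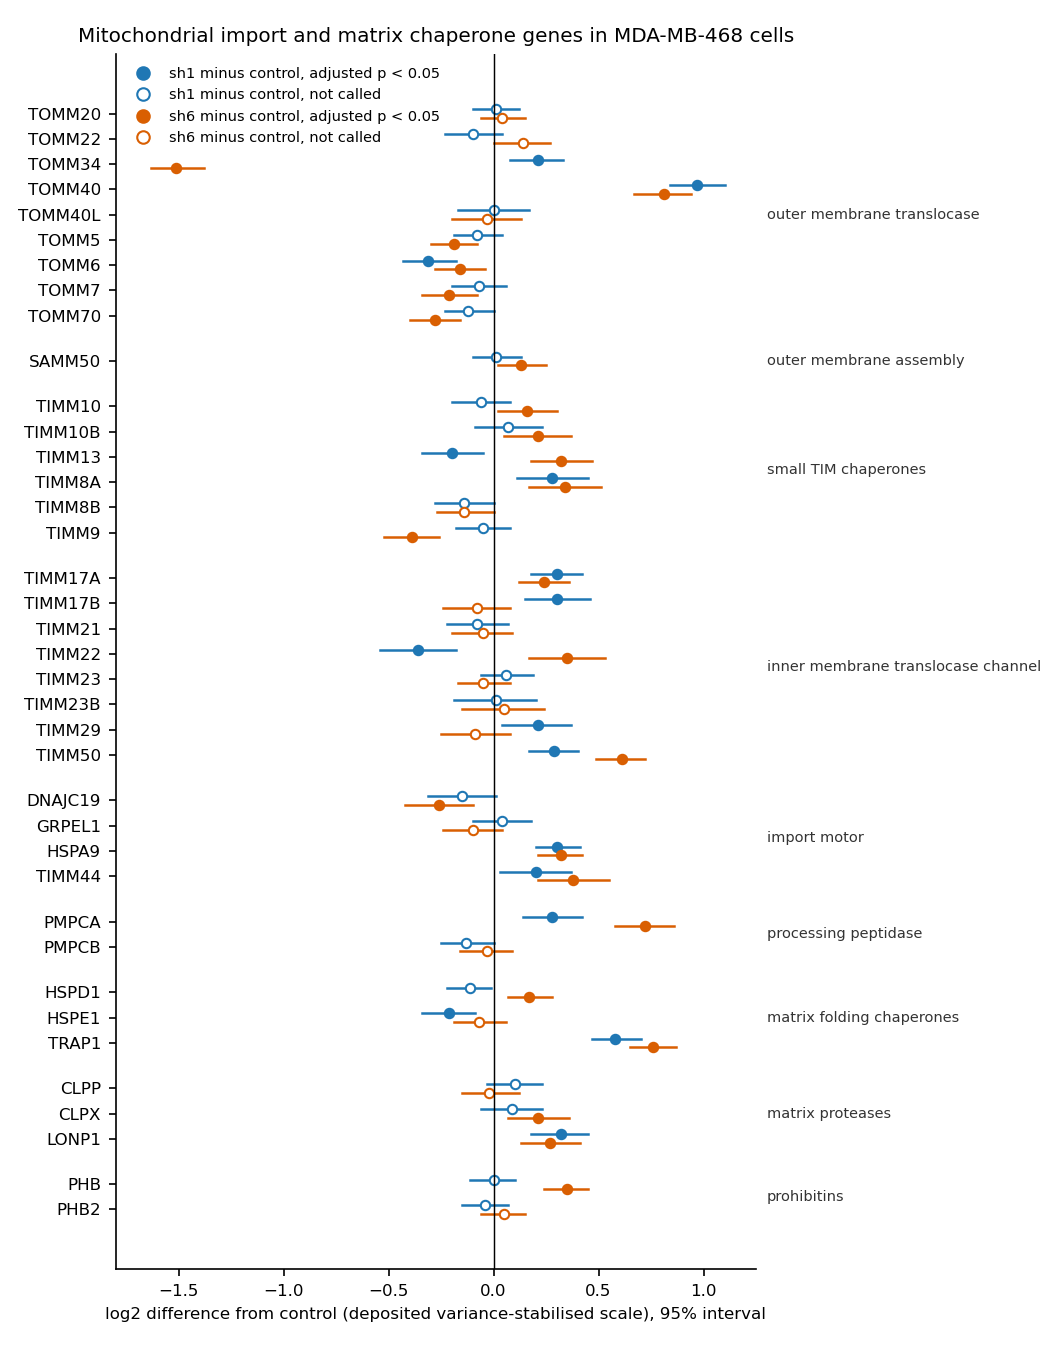
Log2 differences from control on the deposited variance-stabilised scale for the 38 genes tested, by role, for sh1 (blue) and sh6 (orange). Points are limma estimates from 3 libraries per group, lines their 95% intervals, and filled points passed an adjusted p of 0.05; TOMM34 with sh6 (-1.51) and TOMM40 (0.97 and 0.81) lie farthest from 0.

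In the outer membrane translocase, the channel subunit rose while the small subunits fell or were not called. TOMM40, the beta-barrel pore through which nearly all precursors pass, had normalised counts of 1171, 1039 and 1217 in the control libraries, 2308, 2412 and 2176 with sh1, and 2219, 1874 and 2043 with sh6. Every hairpin library was above every control library. The rise was 2.01-fold with sh1 (log2 difference 0.97, SE 0.0644, adjusted p = 4.4e-14) and 1.79-fold with sh6 (0.81, adjusted p = 2.3e-12). The TOMM40 gene spans 44890569 to 44903689 of chromosome 19, plus strand, in GENCODE 29 (GRCh38). Its paralogue TOMM40L had counts of 217, 228 and 264 in the controls, 223, 253 and 232 with sh1, and 225, 216 and 247 with sh6, which overlap. It was not called, with a 95% interval of its log2 difference of -0.17 to 0.17 with sh1 and -0.20 to 0.13 with sh6.

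TOMM20, the receptor for presequences, had counts of 6597, 6831 and 6423 in the controls, 6729, 6655 and 6606 with sh1, and 6387, 7075 and 7036 with sh6. These overlap, and TOMM20 was not called with either hairpin. TOMM70, the receptor for hydrophobic carrier proteins, was at 2821 to 3061 in the controls and fell to 2234 to 2591 with sh6 (log2 difference -0.28, adjusted p = 7.6e-05). With sh1 its log2 difference was -0.12 (adjusted p = 0.0803). Of the small subunits that stabilise the pore, TOMM6 fell by 0.31 on the log2 scale with sh1 (adjusted p = 6.5e-05) and by 0.16 with sh6 (adjusted p = 0.0204), and TOMM5 and TOMM7 fell with sh6 by 0.19 and 0.21 on the log2 scale. The fall of TOMM6 with sh6 was not called without control replicate 2 (adjusted p = 0.102) or sh6 replicate 3 (0.0640), or with libraries centred on their median (0.0513). The central receptor TOMM22 was not called against the control with either hairpin.

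TOMM34, a co-chaperone of HSP70 and HSP90 that is found mainly in the cytosol despite its name, had the largest change of all members with sh6. It had counts of 1560, 1488 and 1435 in the controls, 1815, 1753 and 1637 with sh1, and 490, 452 and 514 with sh6. The sh6 libraries lay far under both other groups, and the sh1 libraries lay above all controls. Against the control it rose 1.16-fold with sh1 (log2 difference 0.21, adjusted p = 0.00489) and fell 3.08-fold with sh6 (-1.51, SE 0.0618, adjusted p = 1.9e-19). The TOMM34 gene spans 44942130 to 44960486 of chromosome 20, minus strand, in GENCODE 29 (GRCh38). SAMM50, the core of the machinery that inserts beta-barrel proteins such as TOMM40 into the outer membrane, was at 1309 ± 34.9 (SD, n = 3) in the controls, 1323 ± 52.9 with sh1 and 1440 ± 15.4 with sh6. Its rise with sh6 was small (0.13, adjusted p = 0.0389) and was lost without control replicate 1 (adjusted p = 0.121) or 3 (0.0643) or without sh6 replicate 2 (0.0941) or 3 (0.0787), with no mean trend (0.0571) and with control and sh6 alone in the fit (0.0626).

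The small TIM chaperones of the intermembrane space went in different directions, although they work as mixed hexamers. TIMM9 and TIMM10 form one hexamer, and TIMM8A and TIMM13 the other. TIMM9 fell with sh6, from 1191, 1288 and 1082 to 884, 902 and 883 (log2 difference -0.39, adjusted p = 2.5e-06), and was not called with sh1 (-0.05, adjusted p = 0.499). TIMM10 had a log2 difference of 0.16 with sh6 (adjusted p = 0.0436), a call lost without control replicate 1 (0.267), sh1 replicate 1 (0.0513) or 3 (0.0541), or sh6 replicate 2 (0.144) or 3 (0.0717). It was also lost with every detected gene tested (0.0552), with no mean trend (0.0543) and with control and sh6 alone in the fit (0.0627). With sh6, all 3 libraries were below the controls for TIMM9 and above them for TIMM10.

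TIMM8A, mutated in a deafness and dystonia syndrome, rose from 194, 244 and 189 to 280, 251 and 264 with sh1 (log2 difference 0.28, adjusted p = 0.00432) and 272, 284 and 278 with sh6 (0.34, adjusted p = 6.5e-04). TIMM8B, its paralogue, had overlapping counts of 1167, 1287 and 1086 in the controls, 972, 1177 and 1053 with sh1, and 1061, 1117 and 1023 with sh6, and was not called (-0.14 with each hairpin, adjusted p = 0.0816 and 0.0787). TIMM13 had counts of 507, 482 and 561 in the controls, 441, 448 and 435 with sh1, and 727, 627 and 631 with sh6. Its 3 groups did not overlap, with the control in the middle. It rose with sh6 (0.32, adjusted p = 2.1e-04), while its fall with sh1 (-0.20, adjusted p = 0.0174) was not called without control replicate 3 (0.0951) or sh1 replicate 3 (0.0545), or with reads scaled to library totals (-0.12, adjusted p = 0.222). TIMM10B, a subunit that holds the hexamer to the TIM22 complex, rose with sh6 (0.21, adjusted p = 0.0211), but not without control replicate 3 (0.221) or sh6 replicate 2 (0.0710) or 3 (0.0572).

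In the TIM23 complex of the inner membrane, TIMM50 and TIMM17A rose and the pore subunit TIMM23 was not called. TIMM50, the receptor that takes presequences from the outer membrane, had counts of 1360, 1396 and 1511 in the controls, 1720, 1765 and 1751 with sh1, and 2274, 2211 and 2107 with sh6. The 3 groups were fully separate, with sh6 highest. The rise was 1.23-fold with sh1 (log2 difference 0.29, adjusted p = 6.2e-05) and 1.54-fold with sh6 (0.61, adjusted p = 6.0e-11). TIMM17A rose from 1288, 1380 and 1468 to 1695, 1713 and 1725 with sh1 (0.30, adjusted p = 6.3e-05) and to 1529, 1721 and 1678 with sh6 (0.24, adjusted p = 6.2e-04). Its paralogue TIMM17B was at 504, 479 and 485 in the controls, rose to 601, 665 and 591 with sh1 (0.30, adjusted p = 0.00122) and was at 539, 407 and 442 with sh6 (-0.08, adjusted p = 0.376). TIMM23 was at 1190 to 1302 in the controls, 1262 to 1306 with sh1 and 1118 to 1262 with sh6. TIMM23 and TIMM23B are near-identical copies whose reads may be hard to assign, and neither was called. The accessory subunit TIMM21 was not called either.

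TIMM22, the pore that inserts carrier proteins into the inner membrane, moved apart with the hairpins. Its counts were 217, 196 and 235 in the controls, 139, 146 and 185 with sh1, and 289, 271 and 318 with sh6. The 3 groups did not overlap. It fell 1.38-fold with sh1 (log2 difference -0.36, SE 0.0887, adjusted p = 8.0e-04) and rose 1.35-fold with sh6 (0.35, adjusted p = 8.3e-04). The TIMM22 gene spans 997117 to 1003671 of chromosome 17, plus strand, in GENCODE 29 (GRCh38). TIMM29, another subunit of the TIM22 complex, rose with sh1 (0.21, adjusted p = 0.0268) and was not called with sh6 (-0.09, adjusted p = 0.338). Its rise with sh1 was lost without control replicate 2 (0.159) or sh1 replicate 1 (0.0543) or 2 (0.0940).

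**Figure D2:**
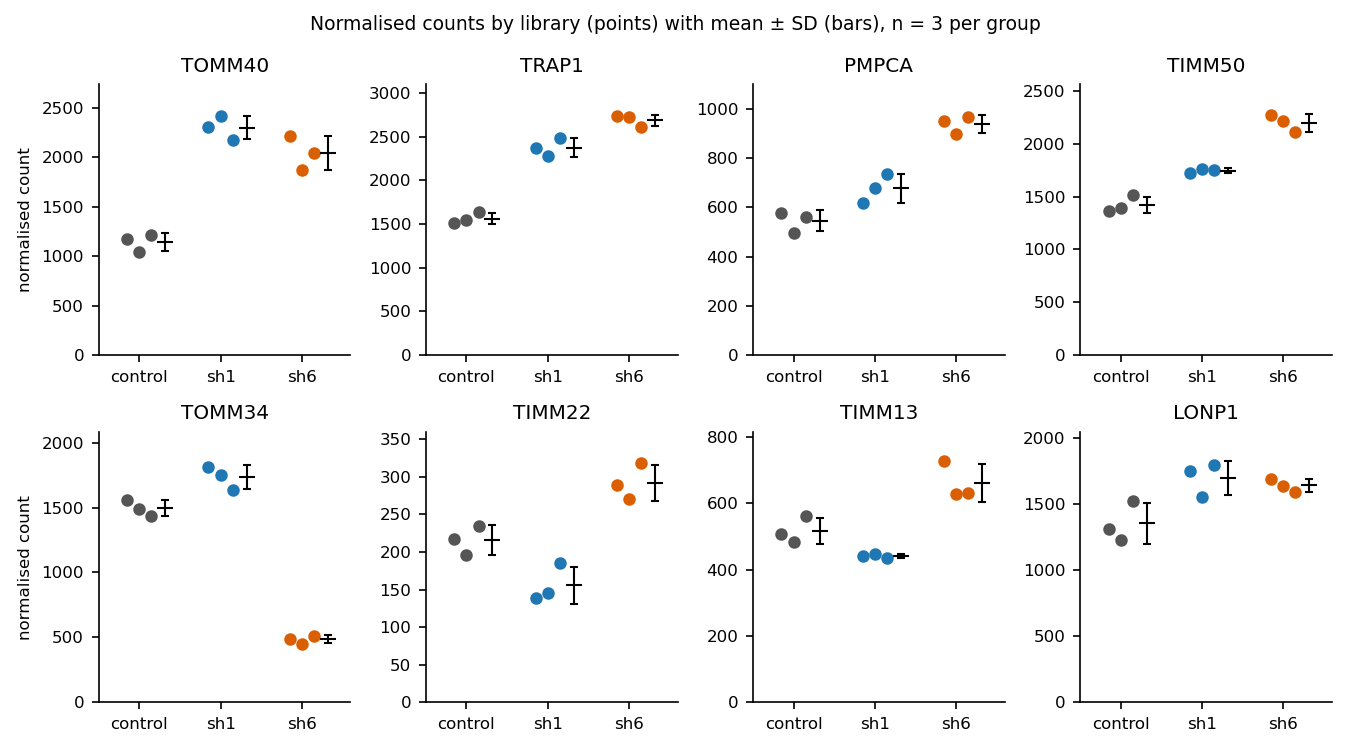
Normalised counts of 8 members in each of the 9 libraries (points), with group mean and SD (bars, n = 3), each axis starting at 0. TOMM40, TRAP1, PMPCA, TIMM50 and LONP1 are above all control libraries with both hairpins, while TOMM34, TIMM22 and TIMM13 lie on opposite sides of the control with sh1 and sh6.

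Of the 4 members of the import motor, HSPA9 rose with both hairpins. Its counts were 6613, 6598 and 6960 in the controls, 8534, 8002 and 8384 with sh1, and 8053, 8501 and 8610 with sh6, with log2 differences of 0.30 (adjusted p = 7.5e-06) and 0.32 (adjusted p = 2.7e-06). TIMM44, which tethers HSPA9 to the channel, rose with sh6 (0.38, adjusted p = 1.4e-04). Its log2 difference with sh1 was 0.20 (adjusted p = 0.0347), a call lost without control replicate 1 (0.101) or 2 (0.287) or sh1 replicate 2 (0.130) or 3 (0.0742), or with no mean trend (0.0636). DNAJC19, a J-domain protein of the inner membrane, fell with sh6 (-0.26, adjusted p = 0.00372), and the nucleotide exchange factor GRPEL1 was not called with either hairpin.

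The 2 subunits of the matrix processing peptidase parted. PMPCA, the subunit that binds the targeting signal, had counts of 577, 498 and 563 in the controls, 617, 678 and 734 with sh1, and 953, 897 and 966 with sh6. The groups did not overlap, and sh6 was highest. The rise was 1.24-fold with sh1 (log2 difference 0.28, adjusted p = 9.5e-04) and 1.72-fold with sh6 (0.72, SE 0.0694, adjusted p = 1.5e-10). The PMPCA gene spans 136410570 to 136423761 of chromosome 9, plus strand, in GENCODE 29 (GRCh38). PMPCB, the catalytic subunit, was at 1404, 1541 and 1353 in the controls, 1337, 1277 and 1303 with sh1, and 1321, 1360 and 1520 with sh6, and was not called (adjusted p = 0.0778 and 0.660).

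Among matrix chaperones, TRAP1 rose with both hairpins while the HSPD1 and HSPE1 pair changed little. TRAP1, the mitochondrial HSP90, had counts of 1509, 1547 and 1636 in the controls, 2370, 2275 and 2485 with sh1, and 2733, 2721 and 2617 with sh6. Every sh6 library was above every sh1 library, and these were above every control. The rise was 1.52-fold with sh1 (log2 difference 0.58, SE 0.0546, adjusted p = 1.2e-10) and 1.72-fold with sh6 (0.76, adjusted p = 2.0e-13). The TRAP1 gene spans 3651639 to 3717597 of chromosome 16, minus strand, in GENCODE 29 (GRCh38).

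HSPD1, the chaperonin that folds imported proteins in its cavity, had counts of 10151, 10506 and 10387 in the controls, 9990, 9391 and 9327 with sh1, and 11091, 12027 and 11880 with sh6. It rose 1.13-fold with sh6 (log2 difference 0.17, adjusted p = 0.00428) and was not called with sh1 (-0.11, adjusted p = 0.0601). HSPE1, the lid of that cavity, had counts of 1911, 2129 and 1864 in the controls, 1748, 1694 and 1622 with sh1, and 1808, 2035 and 1788 with sh6. HSPE1 fell with sh1 (-0.21, adjusted p = 0.00342), a call lost with reads scaled to library totals in voom (-0.11, adjusted p = 0.146), and was not called with sh6 (-0.07, adjusted p = 0.339). Both genes have processed pseudogenes that can share reads, and their annotated spans overlap on opposite strands of chromosome 2.

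Of the matrix proteases, LONP1, which degrades oxidised proteins, rose from 1317, 1228 and 1526 to 1755, 1553 and 1797 with sh1 (log2 difference 0.32, adjusted p = 1.5e-04) and 1694, 1640 and 1598 with sh6 (0.27, adjusted p = 6.9e-04). CLPP, the peptidase barrel, had overlapping counts of 818, 825 and 750 in the controls, 805, 905 and 865 with sh1, and 823, 794 and 748 with sh6, and was not called with either hairpin. CLPX, the unfoldase that feeds it, was at 755, 976 and 926 in the controls, 932, 967 and 917 with sh1, and 1037, 984 and 1078 with sh6. It rose with sh6 (0.21, adjusted p = 0.00817), a call lost without control replicate 1 (0.11, adjusted p = 0.163). The prohibitins form a ring scaffold in the inner membrane. PHB rose with sh6, from 2762, 2688 and 2876 to 3581, 3504 and 3551 (0.35, adjusted p = 7.6e-07), and was at 2667, 2794 and 2849 with sh1 (adjusted p = 0.969). PHB2 was at 2510, 2653 and 2487 in the controls, 2543, 2448 and 2444 with sh1, and 2677, 2609 and 2615 with sh6. Both hairpin groups overlapped the controls, and PHB2 was not called against them.

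Ratios between partner genes within a library do not depend on the scaling between libraries. The ratio of PMPCA to PMPCB was 0.41, 0.32 and 0.42 in the controls, 0.46, 0.53 and 0.56 with sh1, and 0.72, 0.66 and 0.64 with sh6, so that no 2 groups overlapped. The ratio of TOMM40 to TOMM40L was 4.55 to 5.39 in the controls, 9.38 to 10.35 with sh1 and 8.26 to 9.88 with sh6. The ratio of PHB to PHB2 was 1.01 to 1.16 in the controls, 1.05 to 1.17 with sh1 and 1.34 to 1.36 with sh6, above both other groups.

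The ratio of TIMM8A to TIMM8B was 0.17 to 0.19 in the controls, 0.21 to 0.29 with sh1 and 0.25 to 0.27 with sh6. The ratio of HSPE1 to HSPD1 was 0.18 to 0.20, 0.17 to 0.18 and 0.15 to 0.17, and that of CLPP to CLPX was 0.81 to 1.08, 0.86 to 0.94 and 0.69 to 0.81. The ratio of TIMM17A to TIMM17B overlapped between all groups, at 2.56 to 3.03, 2.58 to 2.92 and 2.84 to 4.23. With 3 libraries per group, the exact two-sided permutation test has 0.1 as its smallest p, and over the 21 tests of 7 ratios the smallest adjusted p was 0.16, so none passed.

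**Figure D3:**
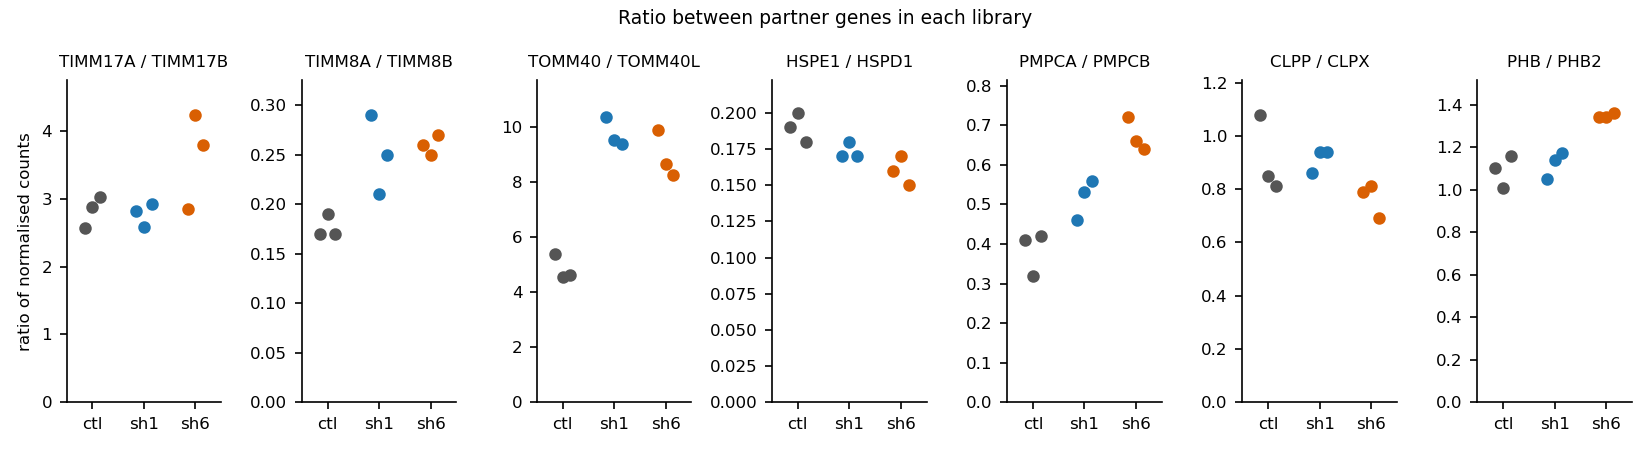
Ratio of normalised counts of 2 partner genes in each of the 9 libraries (points), for 7 pairs, with each axis starting at 0. PMPCA to PMPCB and TOMM40 to TOMM40L are above all controls with both hairpins, and PHB to PHB2 is above all controls with sh6.

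The direct comparison of the hairpins asks where the members differ between sh6 and sh1. With sh6, 11 of the 38 were higher than with sh1 and 6 were lower, where 59.7% of all genes were called (30.8% higher, 28.9% lower). Groups did not overlap for 15 higher and 7 lower members (33.8% and 31.6% of all genes). With reads scaled to library totals, the calls were 6 and 13, while 37.5% of the calls over all genes were then higher in place of 51.6%. TOMM34 was 3.58-fold lower with sh6 (log2 difference -1.72, adjusted p = 1.8e-20). TIMM22 was 1.87-fold higher (0.72, adjusted p = 3.9e-08), TIMM13 1.5-fold higher (0.52, adjusted p = 2.4e-07) and PMPCA 1.39-fold higher (0.44, adjusted p = 2.5e-06). PHB, TIMM50 and HSPD1 were also higher with sh6, by 0.35, 0.32 and 0.28 on the log2 scale, and TIMM17B, TIMM9 and TIMM29 were lower, at -0.38, -0.34 and -0.29. These 10 members were called with every alternative tried. The difference of TOMM40 between the hairpins (-0.17, adjusted p = 0.0275) was lost without sh1 replicate 1 (0.0735) or 2 (0.137) or sh6 replicate 2 (0.206) or 3 (0.0544), or with no mean trend (0.0777). Those of TIMM10, TOMM6, TOMM70, HSPE1 and TOMM22 were also lost without at least 1 library. That of TRAP1 (0.18, adjusted p = 0.00670) was lost only with reads scaled to library totals in voom (0.08, adjusted p = 0.212).

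Levels can be compared between members only per transcript length. Per kilobase of the longest principal transcript in GENCODE 29, the control libraries had the highest normalised count for TOMM5 (7843 ± 531, SD, n = 3), then HSPD1 (4215 ± 73.5), TOMM6 (2531 ± 125) and HSPE1 (2072 ± 149). HSPE1 at 1963 to 2241 and TOMM20 at 1896 to 2017 overlapped, as did HSPA9 at 1396 to 1472 and PHB at 1377 to 1473. TOMM40 stood at rank 21 with 662 ± 53.7 per kilobase, close to TOMM70 (666 ± 27.3) and TRAP1 (681 ± 28.5). PMPCB (580 ± 39.3) was above PMPCA (251 ± 19.4), and TIMM8B (1466 ± 126) was far above TIMM8A (126 ± 18.2). TIMM22 had the lowest level of those tested, 67.7 ± 6.09 per kilobase, a range of 61.4 to 73.6 that overlaps that of TIMM23B (62.9 to 81.5).

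Related lists of protein import and quality control are given by counts and medians, to be read against all genes tested, of which 29.0% were called higher and 30.0% lower with sh1, and 34.2% and 33.6% with sh6. Of 20 further import and sorting genes, 8 rose and 6 fell with sh1 (median log2 difference 0.06), and 4 rose and 6 fell with sh6 (-0.05). CLPB, a disaggregase of the intermembrane space, rose 1.70-fold and 1.71-fold (log2 differences 0.69 and 0.70). MIPEP, which trims some imported proteins after the processing peptidase, rose 1.87-fold with sh1 (0.71, adjusted p = 1.9e-08), and IMMP1L, of the inner membrane peptidase, and ROMO1 fell with sh1 (-0.49 and -0.56). GFER and CHCHD4 form the relay that oxidises proteins such as the small TIMs. With sh6, GFER rose 1.72-fold (0.70, adjusted p = 7.4e-11) while CHCHD4 fell 1.48-fold (-0.46, adjusted p = 2.3e-05). They did not part with sh1, where GFER rose by 0.26 (adjusted p = 0.00109) and CHCHD4 by 0.20 (adjusted p = 0.0436). The CHCHD4 call with sh1 was lost without control replicate 3 (0.303) or sh1 replicate 1 (0.133) or 2 (0.101). HSCB, a co-chaperone of iron-sulphur cluster assembly, fell 1.90-fold with sh6 (-0.74). The groups of HSCB did not overlap, with 315 to 334 in the controls, 205 to 258 under sh1 and 167 to 170 under sh6.

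Of 7 genes of cristae and contact sites, 4 rose with sh1 and 0 fell (median 0.21), and 3 rose and 1 fell with sh6 (0.16). IMMT, the scaffold mitofilin, rose by 0.31 and 0.38, and CHCHD6 by 0.31 and 0.47 on the log2 scale. Of 10 inner membrane and intermembrane space proteases, 4 rose and 2 fell with sh1 (median 0.02), and 4 rose and 3 fell with sh6 (-0.01). AFG3L2, of the protease that faces the matrix, rose 1.44-fold and 1.28-fold (0.52 and 0.35). YME1L1, of the protease that faces the intermembrane space, fell with sh6, at 2476 to 2589 beside 3348 to 3608 in the controls (-0.45, adjusted p = 7.4e-09), and was not called with sh1 (0.10, adjusted p = 0.0831). Of 10 cytosolic chaperones that hand precursors to mitochondria, 3 rose and 1 fell with sh1 (median 0.00), and 5 rose and 3 fell with sh6 (0.13). HSPA8, the constitutive cytosolic HSP70, fell with sh1 (-0.31, adjusted p = 1.1e-05), and with sh6 HSP90AA1 rose 1.41-fold (0.50) and the co-chaperone DNAJB1 fell 1.78-fold (-0.82).

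Of 15 regulators of mitochondrial stress and biogenesis, 5 rose and 3 fell with sh1 (median 0.06), and 5 rose and 5 fell with sh6 (-0.03). ATF5, a factor of the mitochondrial unfolded protein response, rose from 135 to 188 in the controls to 280 to 295 with sh6 (log2 difference 0.64, adjusted p = 1.5e-07). With sh1 it was at 198 to 228 (0.30, adjusted p = 0.00383), and the call was lost without control replicate 2 (0.0550). PPRC1, a coactivator of mitochondrial gene expression, rose by 0.39 and 0.53, and GABPA, a DNA-binding subunit of nuclear respiratory factor 2, fell by 0.61 and 0.80 on the log2 scale. PPARGC1A, the coactivator PGC-1 alpha, was at 282 to 311 in the controls and fell to 143 to 175 with sh6 (-0.72, adjusted p = 3.5e-09) and was at 265 to 305 with sh1 (adjusted p = 0.621).

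Of 12 targets of the integrated stress response, which cells with mitochondrial stress often induce through ATF4, 12 fell with sh6 and 7 with sh1, and 0 rose with either hairpin. With reads scaled to library totals, 4 fell with sh1. Their median log2 differences were -0.73 with sh6 and -0.21 with sh1, beside 0.006 and 0.001 over all genes. The ATF4 transcript itself was not called with sh1 (-0.08, adjusted p = 0.180) or sh6 (-0.06, adjusted p = 0.285), and its protein was not measured here. ALDH1L2, a mitochondrial folate enzyme, was at 935 to 1106 in the controls, 974 to 1143 with sh1 and 350 to 394 with sh6, a 2.77-fold fall with sh6 (-1.33, adjusted p = 1.4e-16). DDIT4 was at 3027 to 3607, 1753 to 1781 and 993 to 1300 and fell with both hairpins (-0.85 and -1.40). The groups of DDIT4 did not overlap. The direct comparison of sh6 with sh1 found 10 of the 12 lower and 0 higher with sh6, among them ASNS, which makes asparagine (adjusted p = 2.4e-14).

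**Figure D4:**
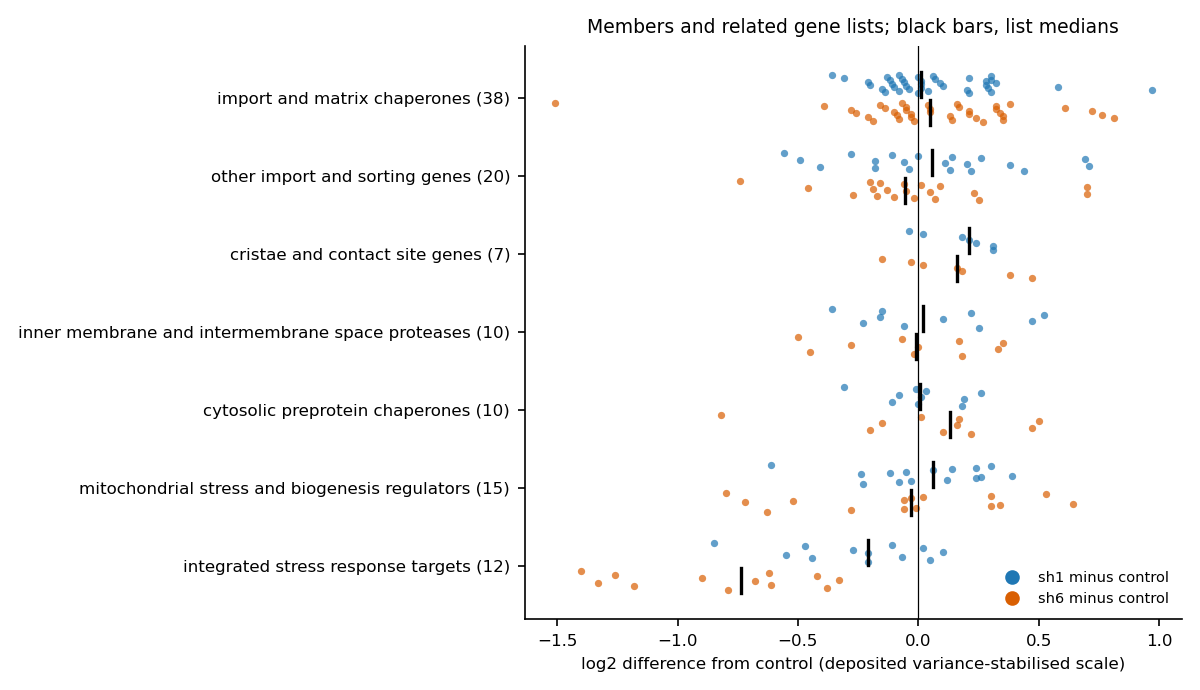
Log2 differences from control on the deposited variance-stabilised scale for the 38 members and for 6 related gene lists, with the number of genes tested in brackets. Each point is a gene with sh1 (blue) or sh6 (orange) and black bars are list medians; the members centre near 0 and the integrated stress response targets lie lowest with sh6 (median -0.73).

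Promoter windows of 250 bases before to 50 after the start (RefSeq, GRCh38.p14) were given for 35 of the 39 members, PHB by its newer symbol, in 40 windows. Both strands were searched for letters of known factors. The E-box CACGTG, which MYC and related factors can bind, was in 7 of 40 member windows and in 8.34% of 22198 windows of protein-coding genes. The windows were those of HSPA9, HSPD1, HSPE1, LONP1, TIMM10, TIMM8A and TOMM20. In TIMM10 and TIMM8A the match reached or lay past the start. The core of the heat shock element, GAANNTTC, was in 1 member window and in 5.67% of coding ones, the core letters of the NRF1 site in 1 and in 1.5%, and the core of the ATF4 element, TGATGNAA, in 2 and in 2.69%. None of the 4 motifs contains another. HSPD1 and HSPE1 start close together on opposite strands, and the E-box of one window is that of the other, as the first pair of sequences shows. TOMM20 (E-box) and PMPCB (ATF4 element core), not called against the control with either hairpin, also held a match but are not shown. LONP1 and HSPA9 are shown as members that rose with both hairpins and TIMM22 as one that moved apart, with the match in capitals.
HSPD1 E-box, chr2:197500345-197500374, minus strand: cggccctggcgaCACGTGaaaaaatcaccc
HSPE1 E-box, chr2:197500345-197500374, plus strand: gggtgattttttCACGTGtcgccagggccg
LONP1 E-box, chr19:5720178-5720207, minus strand: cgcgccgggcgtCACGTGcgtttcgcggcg
HSPA9 E-box, chr5:138575403-138575432, minus strand: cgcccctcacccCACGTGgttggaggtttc
TIMM22 ATF4 element core, reverse strand of the letters, chr17:997036-997065, plus strand: cgaatctgccgTTGCATCAcagtggctagt
A match is a description of the letters in the window. HSPD1 and HSPE1, which share the E-box, had log2 differences of -0.11 and -0.21 with sh1 and 0.17 and -0.07 with sh6. Windows of TOMM40, TRAP1, PMPCA and TIMM50, which rose with both hairpins, held none of these letters.

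The authors' deposited table has 1 log2 fold change and adjusted p-value per gene, for a comparison it does not define. In the authors' deposited table, 9 of the 39 members have an adjusted p under 0.05 with a fold change above 0 and 1 with a fold change below 0, beside 33.1% of the 16686 genes with a value in either direction. The authors' deposited table lists TOMM40 at 0.93 (adjusted p = 3.5e-18), TRAP1 at 0.70 (4.9e-15) and TOMM6 at -0.24 (0.0190). TOMM34, TIMM22 and TIMM13, which differ between the hairpins, stand in the authors' deposited table at -0.43, 0.05 and 0.09, with adjusted p-values of 0.612, 0.913 and 0.756.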

How the data were processed

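The 9 libraries were made from polyadenylated RNA and read from both ends (100 bases). Tools in the submitters' processing notes are DESeq2, Salmon, STAR and cutadapt, with no versions or settings, and the build is hg19. The authors deposited values on a log2-like scale, made by a variance-stabilising transformation per the table's name, which also calls them batch-corrected. They share a floor of 5.02. The authors also deposited a log2 fold change and an adjusted p-value. The transformation was inverted to normalised counts. Of values between 0.5 and 20.5 recovered reads, 75.3% to 80.2% per library were whole within 0.05. Counts and folds in the text come from these, and log2 differences are of the deposited values, which understate changes of low genes.

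Genes with a mean at least 1 above the floor (a count of 16.2) were tested, 13165 in all, with limma 3.58.1 (R 4.3.3, lmFit, eBayes with a mean trend, two-sided) with the 3 groups in 1 model. The Benjamini-Hochberg adjustment covers all genes tested, and a call is an adjusted p under 0.05. In simulated data for sh1 against control over 13165 genes, all changes of 1 on the log2 scale were recovered, 68.0% of rises of 0.5 and 72.0% of falls of 0.5. There, 12965 genes had no change and the spread was set alike for all genes. In the real comparison, 58.9% of genes were called, so these shares do not carry over to it. The members and lists were chosen with earlier results of these data known. Values in every library are given for the 4 largest called changes per comparison and for partner pairs; TIMM50, HSPA9 and TIMM9 were added after their values were seen. Of related lists, at most 2 called genes per direction and comparison are named. The sources used here do not give whether counting used strand, so reads of overlapping genes cannot be told apart. Alternatives were other filters, scalings, variance priors, thresholds, a replicate block, voom and leaving out each library. Python 3.11.15 did the rest.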

Additional observations from a re-analysis of the deposited data

Results flagged for a closer look

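In all, 3 members were called in opposite directions against the control with sh1 and sh6, and differed between the hairpins in the direct limma comparison. TOMM34 was lower with sh6 than with sh1 by a log2 difference of -1.72, TIMM22 higher by 0.72 and TIMM13 higher by 0.52, each with all 3 sh6 libraries outside the range of the 3 sh1 libraries.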

How the results depend on the processing

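Across 20 alternatives, 114 member results gave 2280 comparisons with the reported one, of which 2172 stayed on the same side of the threshold, 70 lost a call, 38 gained one and 0 calls reversed direction. Called under every alternative were 12 of 16 members with sh1, 19 of 24 with sh6 and 10 of 17 between the hairpins. One alternative, chosen after the data were seen, moved counts by over 1.5 times: voom on recovered reads scaled to library totals shifts the median of all genes by 0.115 with sh1. With sh1 it gave 16 members higher and 2 lower, in place of 12 and 4. For sh6 against sh1 it gave 6 higher and 13 lower, in place of 11 and 6. It also gave 4 stress response targets lower with sh1 in place of 7. With sizes from the worth of 1 read, voom changed 1 member call, since HSPD1 was then called with sh1. Leaving out 1 library gave 10 to 12 members higher and 3 to 6 lower with sh1, 14 to 17 and 6 to 8 with sh6, and 8 to 12 and 4 to 8 between the hairpins. Deviations of same-numbered libraries from their group means correlated at -0.13 to 0.18, and those of differently numbered ones at -0.18 to 0.17. The deposited values are called batch-corrected, but no correction is described. They share a floor of 5.02, and 75.3% to 80.2% of low recovered reads per library were whole within 0.05. Whether a correction removed a shared deviation was not tested. The correlations therefore cannot show whether libraries were paired by number. With the replicate number as a block, 12 members rose and 6 fell with sh1, 17 and 8 with sh6, and 12 and 7 between the hairpins. With 3 libraries per group, changes near 0.2 on the log2 scale were often lost when a library was left out.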
